A study of Mus musculus with 3 samples.

Results

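The genes described here are 41 genes that act in the S phase of the cell cycle, when a cell copies its DNA. They were chosen by symbol from the 32285 genes counted in each library, by a rule that uses no measured value, though earlier results of these data were known when the list was drawn up. All 41 were matched, and all 41 had at least 1 UMI (unique molecular identifier, a count of 1 captured RNA molecule) in the kept cells of every library. By role, 6 are subunits of the MCM helicase, 4 license or fire origins, 9 build the replication fork, 3 make nucleotides, 7 assemble chromatin or keep DNA methylation, 10 serve checkpoint and repair, and 2 regulate the cycle (Ccne2 and E2f8).

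CITE-seq, which counts RNA and antibody tags in the same cell, was run on Lineage-KIT+ cells, blood progenitors that lack mature lineage markers and carry the receptor KIT, sorted from the livers of mice on postnatal day 0. Each of 3 genotypes gave 1 library: Control, MLL::ENL, and Skida1-deleted. MLL::ENL is a leukemia fusion of the chromatin regulators MLL and ENL, and the mice with Skida1 deleted carry the fusion as well (their label is MLL::ENL; Skida1-deleted). The sources used here do not give the number of mice behind a library, the mice's strain background, what drives the fusion, or which part of Skida1 is removed.

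Before a cell divides, the MCM helicase is loaded onto origins in an inactive form, and Cdc45 and the GINS complex switch it on as S phase starts. The unwound strands are coated by replication protein A (RPA) and copied by polymerases held on DNA by the sliding clamp PCNA, while ribonucleotide reductase and thymidylate synthase supply nucleotides. Transcripts of many of these genes are low in resting cells and are raised by E2F factors near the start of S phase. In fetal and newborn liver the cells that make red cells divide fast, while the most immature blood stem cells come to rest in the weeks after birth.

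E2F factors bind short GC-rich letters such as those marked below, and the factor NF-Y binds CCAAT. Promoters of 4 members are shown, from RefSeq with the build GRCm38.p6. Levels of Rrm2, Brip1 and Rpa3 are among those that differ most below. Mcm6 is not among those, and its window held the most E2F matches of the members with a listed promoter. Each runs from 250 bases before to 50 bases after the annotated start, 5′ to 3′ on the gene's strand. Capitals mark every match to TTTCCCGC, TTTCGCGC, TTTGCCGC, TTTGGCGC or CCAAT on either strand, and neighbouring matches can overlap. Mcm6, a helicase subunit, lies on chr1:128331575-128359705, with its promoter at chr1:128359656-128359955 (minus strand). Rrm2, the small subunit of ribonucleotide reductase, lies on chr12:24708254-24714146, with its promoter at chr12:24708004-24708303 (plus strand). Brip1, a repair helicase, lies on chr11:86058136-86201215, with its promoter at chr11:86201144-86201443 (minus strand). Rpa3, the smallest subunit of RPA, lies on chr6:8255936-8259141, with its promoter at chr6:8259092-8259391 (minus strand).
Mcm6: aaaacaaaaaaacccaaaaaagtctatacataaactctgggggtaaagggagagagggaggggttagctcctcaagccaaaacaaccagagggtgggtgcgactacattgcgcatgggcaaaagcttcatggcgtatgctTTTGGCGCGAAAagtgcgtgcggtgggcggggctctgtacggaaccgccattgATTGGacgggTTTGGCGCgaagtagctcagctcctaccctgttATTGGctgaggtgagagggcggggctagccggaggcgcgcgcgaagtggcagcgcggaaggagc
Rrm2: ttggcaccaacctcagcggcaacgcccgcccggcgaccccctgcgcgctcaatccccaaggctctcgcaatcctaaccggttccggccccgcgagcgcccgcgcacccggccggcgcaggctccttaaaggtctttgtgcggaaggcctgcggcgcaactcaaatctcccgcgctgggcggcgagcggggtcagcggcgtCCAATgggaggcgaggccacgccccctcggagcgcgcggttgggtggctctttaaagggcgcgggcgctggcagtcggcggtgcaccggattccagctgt
Brip1: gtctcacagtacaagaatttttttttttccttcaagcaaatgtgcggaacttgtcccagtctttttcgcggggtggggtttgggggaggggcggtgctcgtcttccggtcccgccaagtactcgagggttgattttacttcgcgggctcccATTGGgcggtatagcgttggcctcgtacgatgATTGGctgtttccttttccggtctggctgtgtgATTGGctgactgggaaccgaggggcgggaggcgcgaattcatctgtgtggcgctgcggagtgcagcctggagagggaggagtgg
Rpa3: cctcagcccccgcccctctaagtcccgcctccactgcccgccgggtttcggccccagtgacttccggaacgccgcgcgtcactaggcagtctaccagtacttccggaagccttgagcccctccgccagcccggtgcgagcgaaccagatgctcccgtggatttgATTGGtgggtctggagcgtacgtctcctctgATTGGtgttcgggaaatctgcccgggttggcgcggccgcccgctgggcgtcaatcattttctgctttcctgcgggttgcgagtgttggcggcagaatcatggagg

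The Mcm6 window held 3 of the E2F matches and 2 CCAAT matches. The Rrm2, Brip1 and Rpa3 windows held no E2F match, and held 1, 3 and 2 CCAAT matches. Promoters were listed for 31 of the 41 members, and 12 of these 31 (38.7%) held at least 1 of the 4 E2F motifs, against 2.61% of the 27025 genes with a listed promoter. TTTCCCGC was found in 6 members (19.4%, against 1.24% of all genes), TTTCGCGC in 5 (16.1%, against 0.374%), TTTGGCGC in 5 (16.1%, against 0.585%) and TTTGCCGC in 0 of 31 (against 0.507%). CCAAT was found in 22 of 31 (71.0%), against 41.1% of all genes. These matches describe letters only.

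The kept cells numbered 5510 in Control, against 10154 in MLL::ENL and 9168 with Skida1 deleted, with median depths of 28501, 14685.5 and 17025.5 UMIs per cell. Between 14 and 21 cell barcodes were shared by each pair of libraries after filtering. Skida1 itself had 0.226 CPM (UMIs per 1000000 gene UMIs) in Control, against 4.75 in MLL::ENL and 0.504 with Skida1 deleted. Xist, transcribed from the inactive X of female cells, was at 644, 1038 and 2.13 CPM in the same order, and 4 Y-linked genes (Ddx3y, Eif2s3y, Kdm5d and Uty) summed to 2, 0 and 24128 UMIs. The Skida1-deleted library thus differs from MLL::ENL in sex-linked transcripts as well as in Skida1, and what belongs to each cannot be told apart. It differs from Control in sex-linked transcripts too, while its Skida1 level is low as in Control.

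Cells were clustered without any cell cycle gene and named from marker genes. The named classes compared were HSPC-like cells (hematopoietic stem and progenitor cells, with 989, 1456 and 1875 cells in Control, MLL::ENL and Skida1-deleted), granulocyte progenitor-like (181, 281 and 441), megakaryocyte-like (196, 356 and 540) and erythroid-like cells (3523, 7275 and 5543). With 1 library a genotype there is no replicate, so no test between genotypes was possible. The 95% intervals below are exact and cover counting error only.

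The label was checked by asking whether the genes vary together from cell to cell. Cells were ranked by the other 40 members after each cell was thinned to 3000 UMIs, and cut into 4 equal parts, and each member was compared between the top and the bottom part. In HSPC-like cells all 41 members were at least 1.5-fold higher in the top part in every library, against 6.9% of the 9062 other genes measured in all 3. Their median ratio was 4.35 in Control, against 6.24 in MLL::ENL and 6.63 with Skida1 deleted, while the median of the other genes measured was 0.940, 0.883 and 0.879. The 56 other replication genes, a separate list, summed to 2.85, 3.598 and 3.55 times more in the top part. The 54 genes of the G2M phase, which prepares and carries out division, summed to 1.25, 2.46 and 2.13 times more.

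Rrm2 was among the members that followed the others most steeply. In HSPC-like cells Rrm2 was at 3.30 CPM in the bottom and 112.6 CPM in the top part in Control, at 1.60 and 51.8 CPM in MLL::ENL, and at 2.83 and 51.5 CPM with Skida1 deleted. Rpa3 followed them weakly, from 59.6 to 106.5 CPM in Control, from 32.3 to 82.1 CPM in MLL::ENL and from 13.4 to 32.3 CPM in the Skida1-deleted library. Erythroid-like cells varied less among themselves: the members' median ratio was 1.73, 1.64 and 1.61. Cdca7, a partner of the chromatin remodeler Hells, did not follow the others there, with ratios of 1.01, 1.08 and 1.10.

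In every library the summed level of the 41 genes was lower in HSPC-like than in erythroid-like cells. HSPC-like cells held 3980 CPM in Control, against 3078 CPM in MLL::ENL and 3127 CPM with Skida1 deleted. Erythroid-like cells held 5184, 4785 and 4789 CPM. The ratio of erythroid-like to HSPC-like was 1.30 (interval 1.29 to 1.31) in Control, 1.56 (1.54 to 1.57) in MLL::ENL and 1.53 (1.52 to 1.54) in the Skida1-deleted library. Of the 41 members, 34 were above 1 in all 3 libraries and 0 were below 1 in all 3, while 34.3% of all genes were above 1 in all 3. At least 1.5-fold higher in all 3 libraries were 9 members, with a background of 12.2% of 9460 genes, and 0 were lower (background 29.5%). These 9 were led by Rrm2 at 2.60, 2.86 and 3.102, by Cdc6, which loads the helicase, at 2.60, 2.06 and 2.46, and by Fen1, which trims DNA flaps, at 2.35, 2.36 and 2.59.

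Granulocyte progenitor-like cells held 4648, 3897 and 3874 CPM of the 41 genes, and megakaryocyte-like cells 4033, 3897 and 3912 CPM. Granulocyte progenitor-like cells were thus above HSPC-like cells in each library, by 1.17, 1.27 and 1.24. Above 1 in all 3 libraries were 33 of 41 members, while 25.01% of 9265 genes were. Below 1 in all 3 were 0 members, while 47.37% of these genes were. None of the 41 passed 1.5-fold in all 3 libraries, with backgrounds of 2.21% higher and 10.2% lower. Megakaryocyte-like cells were 1.01 times HSPC-like cells in Control, where the interval (0.995 to 1.03) included 1, and 1.27 and 1.25 times in the other 2 libraries. The order in Control turned in 6 of 7 alternatives of clustering, cell filter, doublet removal and class naming. It held for the mean cell thinned to 3000 UMIs, at 11.8 member UMIs against 10.8 in HSPC-like cells. Scaling without globin, ribosomal, mitochondrial, cell cycle and histone genes also kept it (6371 against 6202 CPM). At least 1.5-fold higher in all 3 were 2 of 41, no more than the background of 5.86%. They were E2f8, a repressing E2F, at 2.61, 3.54 and 3.37, and the repair helicase Blm at 2.16, 1.62 and 1.56. None was lower (background 12.6%). A small B-lineage-like class, with 45, 91 and 99 cells, held sums of 6024, 6146 and 5687 CPM, while its median cell held 2932, 4533 and 2336 CPM, below the erythroid-like median cell (5073, 4647 and 4666 CPM). In sums over cells, fewer cells in S phase and less S phase RNA per cell cannot be told apart.

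**Figure D1:**
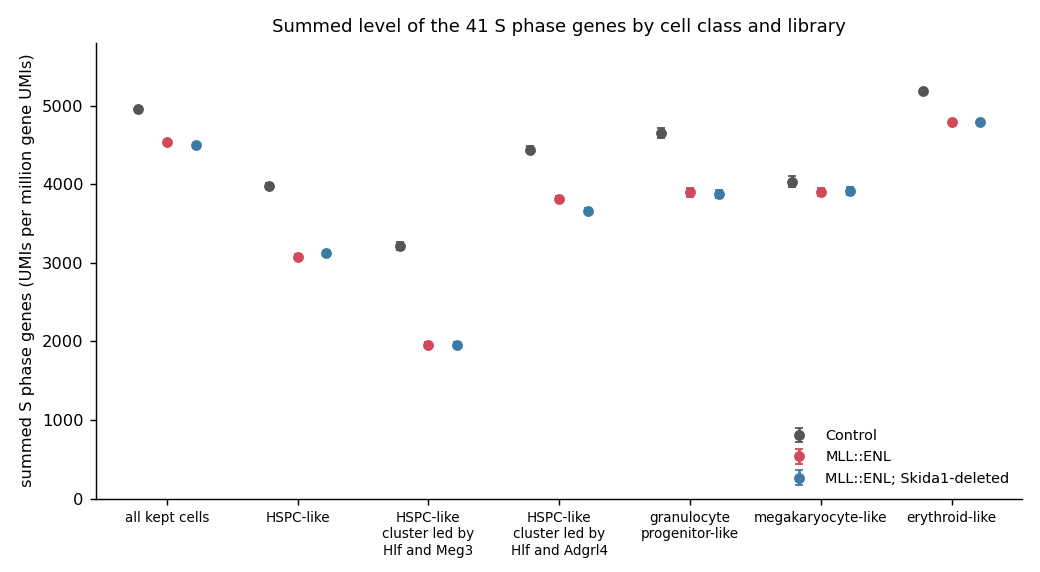
Summed level of the 41 S phase genes (CPM) in all kept cells, the HSPC-like class, its 2 clusters and the 3 other classes, 1 point a library with its 95% counting interval. HSPC-like cells are lower than erythroid-like cells in every library, and the cluster led by Hlf and Meg3 is at 3212 CPM in Control and at 1961 and 1949 CPM in the other 2.

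HSPC-like cells fell into 2 clusters that share Hlf, a transcription factor of stem cells, as the leading gene. The second leading gene was Meg3 in one and Adgrl4 in the other. All 41 members were higher in the Hlf and Adgrl4 cluster than in the Hlf and Meg3 cluster in all 3 libraries, while 23.4% of all genes were. At least 1.5-fold higher in all 3 were 10 members, with a background of 2.1% of 9530 genes, and 0 were lower (background 10.5%). The sums differed by 1.38 in Control, against 1.94 in MLL::ENL and 1.88 with Skida1 deleted. Rrm2 differed by 1.99, 3.22 and 3.06, and Ung, which removes uracil from DNA, by 1.78, 2.04 and 2.30. Smaller differences were seen in Control for Wdr76, at 1.03, and Cdc6, at 1.04, which differed by 2.19 and 2.65 in MLL::ENL. The Hlf and Meg3 cluster was also shallower, with medians of 11148.5, 6963 and 5964 UMIs against 17712, 12332 and 10309.

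Within the erythroid-like class the summed level was highest where globin, the product of maturing red cells, was highest. Of the 5 clusters with at least 200 cells in each library, the one with the least globin was led by Car1, Trnp1 and Tcrg-C1. It held 4242 CPM in Control, against 4112 CPM in MLL::ENL and 4107 CPM with Skida1 deleted. The cluster with the most globin was led by Hbb-bs and Hba-a1 (globin at 0.514%, 0.394% and 0.296% of gene UMIs) and held 7091, 6638 and 6293 CPM. The order was not strict, since a second globin-poor cluster, led by Car1, Trnp1 and Gm15915, held 3726, 3798 and 4104 CPM. Between the clusters with the most and the least globin 37 of 41 members were higher in all 3 libraries, while 34.2% of all genes were. Lower in all 3 were 3 members (Cdca7, Rfc2 and Pola1), while 45.6% of all genes were. At least 1.5-fold higher in all 3 were 18 members, with a background of 7.83% of 8268 genes, and 0 were lower (background 14.3%).

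The steepest members were Rrm2, at 4.75, 4.98 and 5.27 times more in the globin-rich cluster, and Ccne2, the cyclin E2 that opens S phase, at 4.12, 4.65 and 4.56. Cdc6 and Slbp, which binds histone mRNA, followed at 2.54, 2.85 and 2.52 and at 2.45, 2.79 and 2.59. Helicase subunits differed less, from 1.42, 1.30 and 1.24 for Mcm6 to 1.87, 2.03 and 1.88 for Mcm4. Cdca7 was lower in the globin-rich cluster, at 0.780, 0.735 and 0.706. The 3 libraries thus gave the members similar ratios between these 2 clusters.

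**Figure D2:**
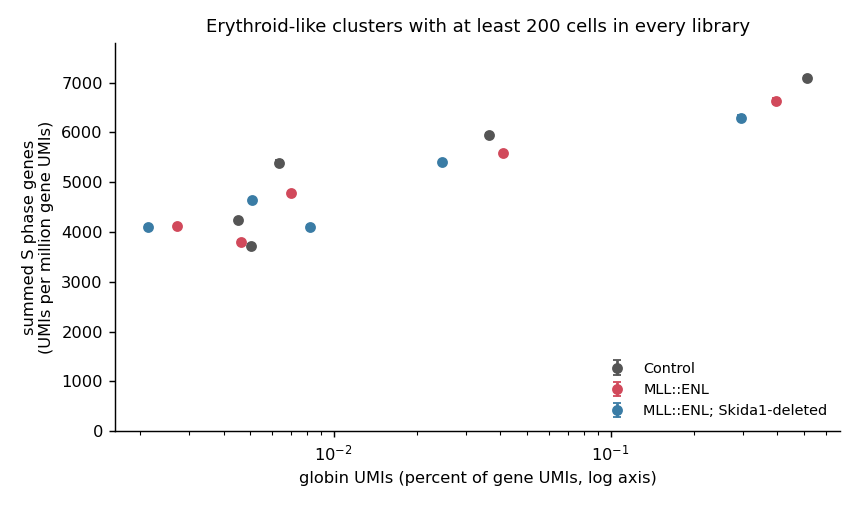
Summed level of the 41 S phase genes (CPM) against globin (percent of gene UMIs, log axis) in 5 erythroid-like clusters, 1 point a cluster and library with 95% counting intervals, most smaller than the points. The cluster richest in globin is highest in each library, at 7091, 6638 and 6293 CPM.

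Compared with Control, the MLL::ENL library held less of the 41 genes in HSPC-like cells. The sum was 3980 CPM in Control (interval 3949 to 4012) and 3078 CPM in MLL::ENL (3050 to 3106), a ratio of 0.773 (0.764 to 0.783). At least 1.5-fold lower were 14 of 41 members (34.2%), with a background of 15.9% of 9938 genes, and 0 were at least 1.5-fold higher, with a background of 8.61%. The members' median log2 ratio was -0.39 and that of all genes -0.10. Other choices gave other counts: 24 of 41 with every cell thinned to 3000 UMIs, against 18.1% of all genes, and 4 of 41 with a coarser clustering and with a stricter cell filter, against 15% and 16% of all genes. The log2 ratio of the sum was -0.37, and -0.57, -0.18 and -0.15 under these 3 choices. The last 2 placed a further cluster in this class, led by Clec4d and Serpina3g or by Ctla2a and Serpina3g.

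The ratio was lower in the Hlf and Meg3 cluster. Its sum was 3212 CPM in Control and 1961 CPM in MLL::ENL, a ratio of 0.611 (0.597 to 0.625), and 30 of its 41 members were at least 1.5-fold lower, with a background of 17.8% of 10372 genes, and 0 were higher (background 12.3%). In the Hlf and Adgrl4 cluster the sum was 4439 and 3813 CPM, a ratio of 0.859 (0.847 to 0.871), and 8 of 41 were at least 1.5-fold lower, with a background of 17%, and 0 were higher (background 7.4%). Brip1 was at 25.1 and 7.68 CPM in the Hlf and Meg3 cluster, a ratio of 0.306, and Mcm2 at 49.3 and 49.4 CPM. Whether the 2 clusters differed in this response could not be tested with 1 library each.

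At equal depth the same pattern was seen cell by cell. With every cell thinned to 3000 UMIs, HSPC-like cells held a median of 9 member UMIs in Control, against 5 in MLL::ENL and 5 with Skida1 deleted. Cells with under 5 member UMIs made up 21.7% of Control (exact interval 19.2 to 24.4), 48.0% of MLL::ENL (45.4 to 50.6) and 43.4% of the Skida1-deleted library (41.1 to 45.7). Cells with 20 or more made up 15.1%, 7.02% and 8.09%. Thinning left out 4, 3 and 20 shallower cells, and unthinned the median cell held 3130, 1561 and 1743 CPM.

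The share under 5 UMIs was largest in the Hlf and Meg3 cluster, at 36.7%, 68.4% and 66.1%, and was 9.94%, 26.1% and 27.6% in the Hlf and Adgrl4 cluster. In erythroid-like cells it was 2.68%, 2.08% and 2.55%, with medians of 15, 14 and 14 UMIs, after thinning left out 49, 796 and 280 cells. Few of the erythroid-like cells kept by thinning in any library were therefore near the floor that many HSPC-like cells of the MLL::ENL and Skida1-deleted libraries reached.

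**Figure D3:**
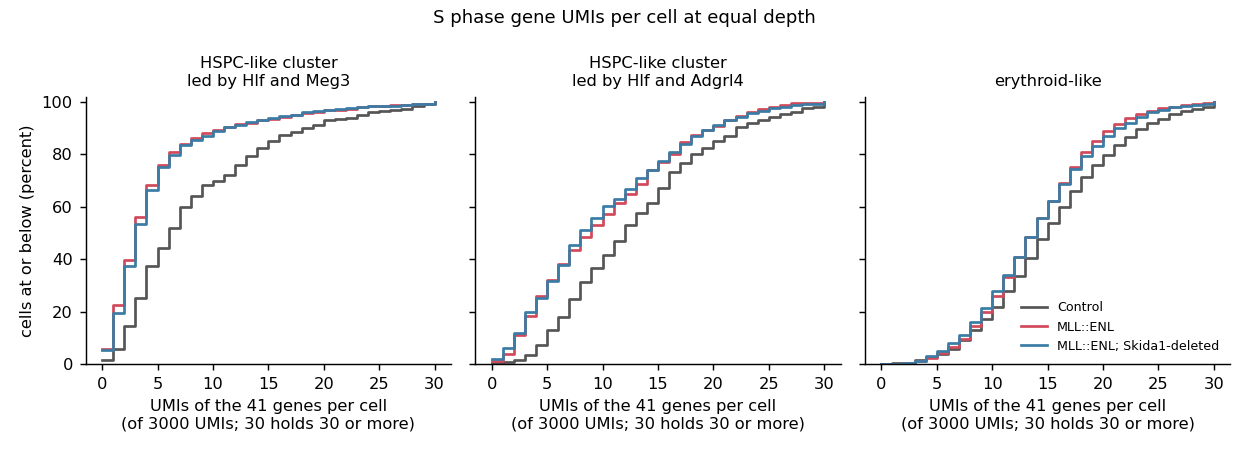
Share of cells (percent, cumulative) at or below each number of S phase gene UMIs, with every cell thinned to 3000 UMIs, in the 2 HSPC-like clusters and the erythroid-like class, 1 line a library. The Control line lies below the other 2 in both HSPC-like clusters, and the 3 lines lie close together in erythroid-like cells, with medians of 15, 14 and 14 UMIs.

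Other measures moved with this difference. Median depth in HSPC-like cells was 14159 UMIs in Control, against 8870 in MLL::ENL and 7997 with Skida1 deleted. The 12 HSPC markers summed to similar levels (2061, 2024 and 2114 CPM). The 10 monocyte-dendritic markers summed to 155, 66.7 and 53.6 CPM with 0, 0 and 1 of them at 0 UMIs. The 7 endothelial markers summed to 504, 355 and 336 CPM with 0, 1 and 1 at 0 UMIs, and the 15 erythroid markers to 1160, 1033 and 884 CPM with 1, 0 and 1 at 0 UMIs. Their part in the result was not tested.

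Among the helicase subunits, Mcm2 stood apart from its partners in HSPC-like cells. Mcm3, Mcm4, Mcm5, Mcm6 and Mcm7 were at 0.759 to 0.864 of Control in MLL::ENL. Mcm2 was at 65.3 CPM in Control, against 69.7 in MLL::ENL and 65.3 with Skida1 deleted, a ratio to Control of 1.07 (0.979 to 1.17). Its log2 ratio ran from -0.10 with every cell thinned to 0.32 with the stricter cell filter, which also put Mcm6 above Control, at 0.07. The subunits summed to 941 CPM in Control and 796 CPM in MLL::ENL, a ratio of 0.846 (0.826 to 0.867). In erythroid-like cells they summed to 1130 and 1160 CPM, a ratio of 1.03 (1.02 to 1.03).

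Origin factors were lower by more. In HSPC-like cells Cdc45, which joins MCM in the active helicase, was at 29.6 CPM in Control, against 14.8 in MLL::ENL and 13.2 with Skida1 deleted, a ratio to Control of 0.501 (0.425 to 0.589). Gmnn (geminin), which blocks a second loading of MCM, was at 150.5, 90.7 and 89.5 CPM (0.602). Gins2 was at 67.8, 43.3 and 41.9 CPM (0.639), while Cdc6 was at 24.4, 23.7 and 21.99 CPM (0.969, 0.836 to 1.12). As a group the 4 origin genes were at 0.633 of Control in HSPC-like and 0.755 in erythroid-like cells of MLL::ENL.

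Of the 9 fork genes, 4 were at least 1.5-fold lower in HSPC-like cells of MLL::ENL (background 15.9% of all genes). Prim1, the primase that starts new strands, was at 104 CPM in Control, against 49.7 in MLL::ENL and 54.8 with Skida1 deleted, a ratio to Control of 0.477 (0.437 to 0.521). Rfc2, a clamp loader subunit, was at 186, 104 and 116 CPM (0.561), and Dscc1, of another clamp loader, at 25.9, 15.2 and 17.6 CPM (0.590). Rpa2 was at 101.8, 61.5 and 59.7 CPM (0.604).

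Pola1, of the same polymerase complex as Prim1, went the other way in erythroid-like cells, where it was at 63.9, 84.6 and 83.9 CPM (1.32, 1.29 to 1.36), while Prim1 was at 110, 76.5 and 77.2 CPM (0.698). Pcna was at 218 CPM in Control, against 191 in MLL::ENL and 147 with Skida1 deleted in HSPC-like cells (0.874 of Control in MLL::ENL). Fen1 was at 77.9, 52.0 and 38.6 CPM (0.668). The Fen1 locus overlaps Tmem258, which was at 86.5, 186 and 236 CPM over all kept cells. In all 9 members overlap an annotated gene, and for 7 of them, Mcm7, Cdc45, Gins2, Fen1, Ung, Dtl and Ccne2, it reached 5 CPM, so their values are uncertain as far as reads could be split. Whether the counting used strand was not stated.

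Nucleotide genes were lower in both classes. In HSPC-like cells Rrm2 was at 46.2 CPM in Control, against 22.3 in MLL::ENL and 20.1 with Skida1 deleted, a ratio to Control of 0.482 (0.422 to 0.549). In erythroid-like cells it was at 120, 63.7 and 62.4 CPM (0.531, 0.517 to 0.545). Tyms, thymidylate synthase, was at 57.6 CPM in HSPC-like cells of MLL::ENL and 62.4 CPM with Skida1 deleted, with a ratio of MLL::ENL to Control of 0.564, and at 157, 104 and 106 CPM in the 3 libraries in erythroid-like cells (0.660). Rrm1, the large subunit of the same reductase as Rrm2, differed less, at 0.798 in HSPC-like and 0.924 in erythroid-like cells.

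Chromatin genes were split. In HSPC-like cells of MLL::ENL, Atad2, a bromodomain ATPase, was at 0.619 of Control and Chaf1b, of the histone chaperone CAF-1, at 0.666, both at least 1.5-fold lower. Nasp, a histone chaperone, was at 168 CPM in Control, against 184 in MLL::ENL and 211 with Skida1 deleted in HSPC-like cells, and at 275, 404 and 449 CPM in erythroid-like cells (1.47 of Control in MLL::ENL, 1.45 to 1.49). Cdca7 was at 85.7, 95.6 and 126 CPM in HSPC-like cells and at 78.2, 119 and 153 CPM in erythroid-like cells, a ratio to Control of 1.52 (1.49 to 1.56). Cdca7 was the only member at least 1.5-fold higher in erythroid-like cells. Its log2 ratio was 0.60, and 0.46, short of 1.5-fold, with every cell thinned.

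Among repair genes Brip1 differed most. In HSPC-like cells it was at 27.4 CPM in Control, against 9.87 in MLL::ENL and 12.7 with Skida1 deleted, a ratio to Control of 0.360 (0.297 to 0.435). In erythroid-like cells it was at 18.4, 11.7 and 11.1 CPM (0.635). Ung (0.618) and Wdr76 (0.603) were also at least 1.5-fold lower in HSPC-like cells. Dtl, which directs the destruction of licensing factors, was higher in each class, from 1.22 in HSPC-like to 1.61 (1.39 to 1.87) in megakaryocyte-like cells. In the last it was at 71.7 CPM in Control and 116 CPM in MLL::ENL.

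**Figure D4:**
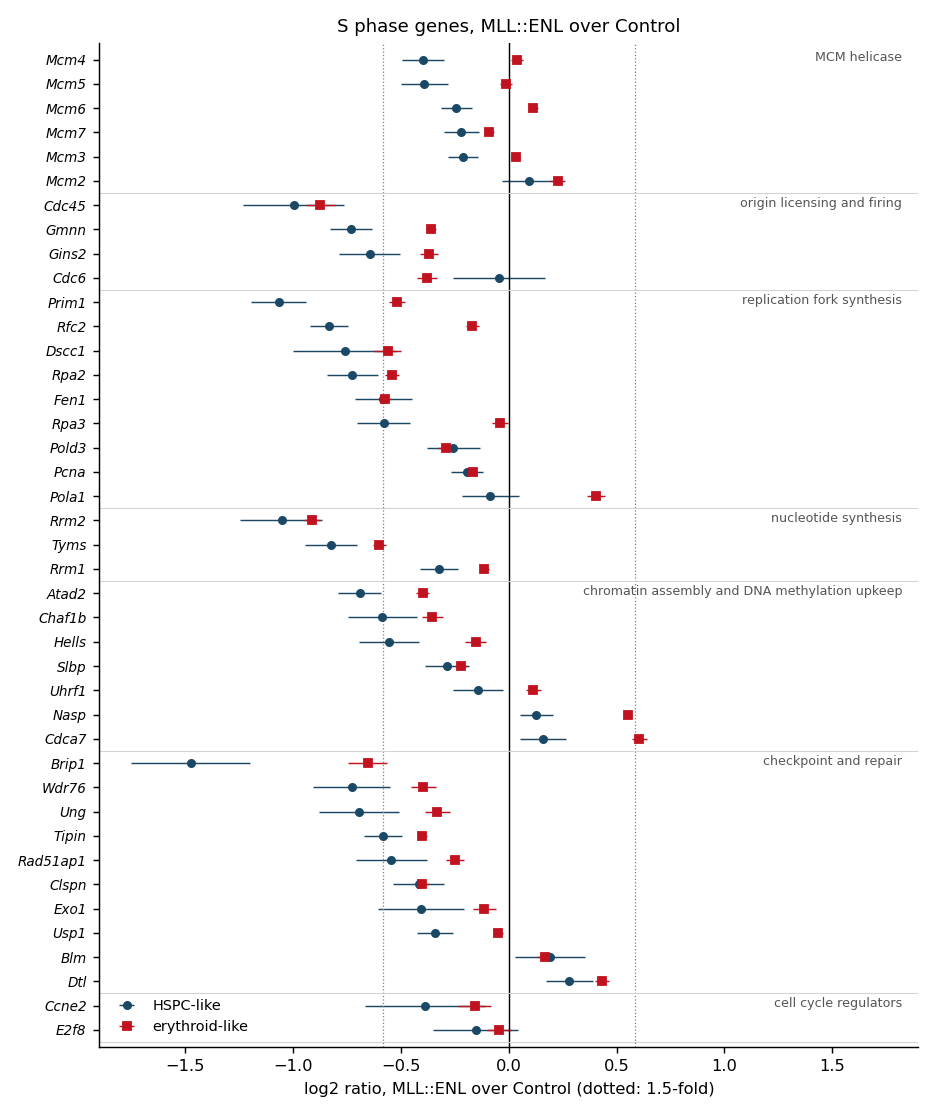
Log2 ratio of MLL::ENL over Control for each of the 41 genes, grouped by role, in HSPC-like cells (circles) and erythroid-like cells (squares) with 95% counting intervals and dotted lines at 1.5-fold. Brip1, Prim1, Rrm2 and Cdc45 lie farthest to the left in HSPC-like cells, and Cdca7 and Nasp farthest to the right in erythroid-like cells.

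In the other classes fewer members passed 1.5-fold. At least 1.5-fold lower in MLL::ENL were 11 of 41 in granulocyte progenitor-like cells (background 19.1%), 5 in megakaryocyte-like cells (18.6%) and 4 in erythroid-like cells (12%). At least 1.5-fold higher were 0 (background 8.4%), 1 (Dtl, 7.65%) and 1 (Cdca7, 5.55%). In megakaryocyte-like and erythroid-like cells the share of members lower (12.2% and 9.76%) was thus below the background. Brip1 and Cdc45 were at least 1.5-fold lower in all 4 classes, and the share of all genes so placed was not computed. Some alternatives brought them within 1.5-fold. The log2 ratio of Cdc45 rose to -0.45 in megakaryocyte-like cells and that of Brip1 to -0.53 in erythroid-like cells. In granulocyte progenitor-like cells Brip1 was at 27.5, 9.84 and 10.7 CPM and Rrm2 at 65.1, 34.2 and 39.7 CPM in Control, MLL::ENL and Skida1-deleted. Fen1 (0.592, 0.509 to 0.688), Gmnn (0.595) and Cdc45 (0.589, 0.453 to 0.763) came next there. In megakaryocyte-like cells the 5 lower members were Prim1 at 0.581 (0.505 to 0.668), Brip1 at 0.592, Cdc45 at 0.630, Wdr76 at 0.657 and Ung at 0.662. Between the same libraries, in this class, the 11 megakaryocyte markers summed to 2771 and 4323 CPM (0 at 0 UMIs in both), the 11 granulocyte progenitor markers to 395 and 92.5 CPM (1 and 2 at 0 UMIs) and the 8 macrophage markers to 21.1 and 3.05 CPM (0 and 2 at 0 UMIs), and their part in these values was not tested. In erythroid-like cells Cdc45 was second to Rrm2, at 37.0 CPM in Control and 20.2 CPM in MLL::ENL (0.545).

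The direction also depends on what the genes are read against. In all 4 classes 26 members were below Control in MLL::ENL and 4 (Mcm2, Nasp, Cdca7 and Dtl) above it, while 43.8% of 8096 genes were below in all 4 and 18.1% above. Read against the median of all genes in each class, 34 members were below it in HSPC-like, 30 in granulocyte progenitor-like, 19 in megakaryocyte-like and 24 in erythroid-like cells, and 16 in all 4. A median splits all genes evenly, and the members were near such a split in megakaryocyte-like (19 below, 22 above) and erythroid-like cells (24 below, 17 above). The share of all genes below their medians in all 4 classes was not computed. The sum was at 0.838 (0.822 to 0.855) of Control in granulocyte progenitor-like, 0.966 (0.946 to 0.987) in megakaryocyte-like and 0.923 (0.920 to 0.926) in erythroid-like cells. Scaling by the median of ratios over genes shifted every log2 ratio up by 0.05 in HSPC-like, 0.15 in granulocyte progenitor-like, 0.16 in megakaryocyte-like and 0.09 in erythroid-like cells, and turned the megakaryocyte-like sum above Control. In 6 of its 10 alternatives that sum was above Control.

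Different clusters made up the erythroid-like class in Control and MLL::ENL. A cluster led by Ermap, Car1 and Sphk1 held 881 Control cells, 5 MLL::ENL cells and 16 of the Skida1-deleted library. A cluster led by Hbb-bs, Hba-a1 and Car1 held 91, 2480 and 131 cells, with median depths of 47067, 3985 and 1889 UMIs. It was thus shallow in the MLL::ENL and Skida1-deleted libraries but deep in Control. Without this cluster and another led by Ank1 and Tnfaip2, both of low depth when the libraries were pooled, the erythroid-like ratio was 0.922 (0.919 to 0.925). The 15 erythroid markers summed to 4865, 3503 and 3161 CPM in erythroid-like cells, and the part of this in the result was not tested.

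Of the list of 56 other replication genes, 15 of 55 measured were at least 1.5-fold lower in HSPC-like cells of MLL::ENL (27.3%, with the background of 15.9%) and 0 higher, with a median log2 ratio of -0.40. Chek1, a checkpoint kinase, was lowest at 0.388 of Control and Asf1b, a histone chaperone, next at 0.427. E2f7 and E2f2, E2F family members, were highest at 1.33 and 1.24. In erythroid-like cells 7 of 55 were lower (12.7%, near the background of 12%) and 0 higher, with Timeless, a fork protection gene, at 0.515 and Tk1, thymidine kinase, at 0.535, and E2f2 at 1.46 and Pole3, a polymerase epsilon subunit, at 1.16.

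The G2M genes differed by more than the 41 in HSPC-like cells. Of 54, 43 were at least 1.5-fold lower in MLL::ENL (79.6%, with the background of 15.9%) and the median log2 ratio was -1.02. Their sum was 8282 CPM in Control, against 5146 in MLL::ENL and 6133 with Skida1 deleted. Hmmr, a spindle gene, was lowest at 92.5 CPM in Control and 23.9 CPM in MLL::ENL (0.258), and Lbr, a nuclear envelope receptor, highest at 105 and 130 CPM (1.24). Pimreg was next lowest (0.296) and Cbx5 next highest (1.01). In erythroid-like cells 12 of 54 were lower (22.2%, with a background of 12%). Ube2c, which acts in mitotic exit, was at 0.517 and Kif2c, a mitotic kinesin, at 0.550, while Rangap1 (1.36) and Lbr (1.33) were highest.

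In the Skida1-deleted library the sums of the 41 genes were near those of the MLL::ENL library. These 2 libraries also differ in sex-linked transcripts, so the values do not isolate the deletion. The ratio of the Skida1-deleted library to MLL::ENL was 1.016 (1.004 to 1.029) in HSPC-like, 0.994 (0.975 to 1.01) in granulocyte progenitor-like, 1.004 (0.9858 to 1.022) in megakaryocyte-like and 1.001 (0.9974 to 1.004) in erythroid-like cells. In the HSPC-like clusters it was 0.994 (0.968 to 1.02) for Hlf and Meg3 and 0.961 (0.947 to 0.974) for Hlf and Adgrl4. The log2 ratio in HSPC-like cells was 0.02, and -0.09 with the stricter cell filter. The MLL::ENL library is the reference here and the compared library above, so the 2 comparisons are not independent.

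One member, Rpa3, was at least 1.5-fold lower in each of the 4 classes, and no other member passed 1.5-fold in either direction in any of them. The background for lower was 1.44% of genes in HSPC-like, 3.35% in granulocyte progenitor-like, 2.78% in megakaryocyte-like and 0.886% in erythroid-like cells. For higher it was 2.12%, 3.46%, 3.22% and 1.05%. RPA coats single-stranded DNA, and Rpa3 is its smallest subunit.

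Rpa3 was at 85.8 CPM in Control, against 57.3 in MLL::ENL and 22.3 with Skida1 deleted in HSPC-like cells, and at 95.8, 93.0 and 28.1 CPM in erythroid-like cells. It was at 92.6, 77.7 and 24.6 CPM in granulocyte progenitor-like cells, and at 94.3, 86.8 and 27.3 CPM in megakaryocyte-like cells. The Skida1-deleted library was thus lowest in every class. Its ratio to MLL::ENL was 0.390 (0.344 to 0.440) in HSPC-like, 0.316 (0.260 to 0.384) in granulocyte progenitor-like, 0.315 (0.264 to 0.374) in megakaryocyte-like and 0.302 (0.292 to 0.314) in erythroid-like cells.

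The 2 HSPC-like clusters gave 0.367 and 0.380, the B-lineage-like cells 0.314 (0.171 to 0.545), and unnamed clusters led by Cd74 and H2-Aa and by Prg2 and Ms4a2 gave 0.300 and 0.416. No alternative of those tried brought Rpa3 within 1.5-fold in any of the 4 classes: its log2 ratios ran from -1.30 to -1.53 in HSPC-like and from -1.65 to -1.73 in erythroid-like cells. Rpa2, its partner subunit, did not share this, at 0.971 (0.887 to 1.06) in HSPC-like and 0.995 (0.971 to 1.02) in erythroid-like cells. In the Skida1-deleted library Rpa3 still followed the other members from cell to cell, with 2.40 times more in the top part of HSPC-like cells.

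Over all kept cells Rpa3 was counted in 15383 UMIs in Control, against 15814 in MLL::ENL and 4829 with Skida1 deleted. The 6 genes around it on chromosome 6, looked at after its values were seen, had ratios to MLL::ENL from 0.778 (Glcci1) to 1.02 (Mios). Mios, before Rpa3 in coordinates, was at 24.2 CPM in MLL::ENL and 24.6 CPM in the Skida1-deleted library, and Umad1, next to Rpa3 on its other side, at 3.03 and 2.79 CPM (0.922). Of 7854 genes measured in all 4 classes, 19 (0.242%) were at least 1.5-fold lower in all 4, and Rpa3 was the only one of them on chromosome 6 and the only member. Named after their values were seen, others of the 19 were Xist (1038 and 2.13 CPM), Myc, a growth regulator (160 and 89.4 CPM, 0.558), Sdhd, a subunit of mitochondrial complex II (223 and 99.4 CPM, 0.446), and the X-linked Kdm6a (45.9 and 25.9 CPM, 0.564). The part of the sex-linked difference in the Rpa3 value was not tested.

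Pcna, Fen1 and Tipin were lower, and Cdca7 and Hells higher, in each class by less than 1.5-fold. Pcna was at 0.773 (0.732 to 0.816) of MLL::ENL in HSPC-like, 0.790 in megakaryocyte-like and 0.797 (0.785 to 0.808) in erythroid-like cells. Fen1 was at 0.742, 0.761 and 0.817 in the same classes, and Tipin, a fork checkpoint gene, at 0.836, 0.785 and 0.855. Cdca7 was higher, at 1.32 (1.23 to 1.41) in HSPC-like, 1.48 (1.35 to 1.64) in megakaryocyte-like and 1.29 (1.26 to 1.31) in erythroid-like cells. Hells, its partner, was at 1.16, 1.22 and 1.30. Brip1 had no common direction, at 1.29 (1.04 to 1.60) in HSPC-like and 0.952 (0.887 to 1.02) in erythroid-like cells. In granulocyte progenitor-like cells Tipin was at 0.763 (0.687 to 0.847), E2f8 at 0.806 (0.656 to 0.990) and Cdc6 at 1.28 (1.01 to 1.62; 0.929 in HSPC-like cells), while the interval of Ccne2 (1.35, 0.970 to 1.896) included 1. In all 4 classes 9 members were below MLL::ENL and 11 above, while 26.2% and 19.7% of 7854 genes were.

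By role, the fork genes summed to 0.899 (0.874 to 0.924) of MLL::ENL in HSPC-like and 0.856 (0.849 to 0.862) in erythroid-like cells. This sum holds Rpa3, Pcna and Fen1, and in HSPC-like cells Pola1 (1.15), Prim1 (1.10), Rfc2 (1.11) and Dscc1 (1.16) were above 1, so it does not describe each fork gene. The chromatin genes were higher, at 1.14 (1.11 to 1.17) and 1.13 (1.12 to 1.13). Helicase subunits were at 1.07 (1.04 to 1.09) and 1.04 (1.03 to 1.05), with Mcm2 alone below 1, at 0.937 and 0.871. The origin genes were at 0.965 and 0.986 and the nucleotide genes at 1.04 and 0.997.

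**Figure D5:**
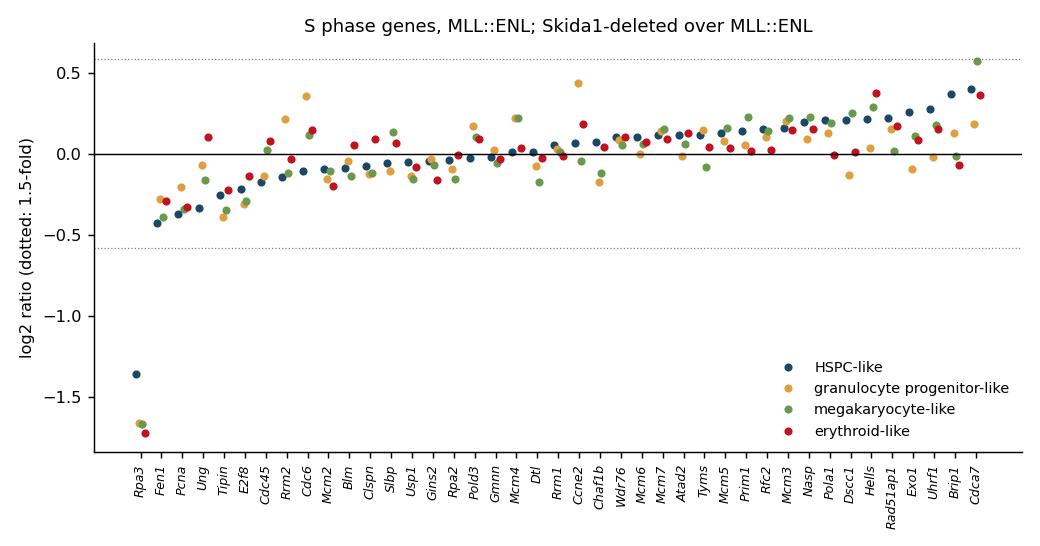
Log2 ratio of the Skida1-deleted library over MLL::ENL for each of the 41 genes in 4 classes, ordered by the HSPC-like value, with dotted lines at 1.5-fold. Rpa3 lies below the lower line in all 4 classes, and every other point lies between the lines.

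The other 2 lists gave 0 of 55 measured other replication genes at least 1.5-fold lower or higher in HSPC-like cells, where Ccna2 (1.35) and Prim2 (1.35) were highest and Chek1 (0.808) and E2f2 (0.809) lowest. In erythroid-like cells Rfc3 (1.40) and Tonsl (1.29) were highest and Orc1 (0.794) and Orc6 (0.883) lowest. Of 53 measured G2M genes 5 were at least 1.5-fold higher and 0 lower in HSPC-like cells, with a median log2 ratio of 0.28, and Nusap1, a spindle gene, was highest at 66.4 CPM in MLL::ENL and 119 CPM in the Skida1-deleted library (1.80), followed by Tpx2 (1.66), while Cks1b and Cdk1 were lowest (both 0.920). In erythroid-like cells 0 of 54 passed 1.5-fold in either direction, from Psrc1 (0.785) and Gtse1 (0.803) to Cdc25c (1.26) and Pimreg (1.40).

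Antibody tags, which the gene list did not use, tracked the summed level in HSPC-like cells. Cells were ranked by each tag relative to the mean log count of all 10 tags in the cell, and cut into 3 equal parts. A high count of 1 tag thus lowers the others, so the tags are not independent. CD48, which appears on progenitors that leave the stem cell state, went with more of the 41 genes in all 3 libraries. The sum in the lowest and the highest CD48 part was 3388 and 4311 CPM in Control, against 1800 and 3843 CPM in MLL::ENL and 2294 and 3678 CPM with Skida1 deleted, ratios of 1.27 (1.25 to 1.30), 2.14 (2.08 to 2.20) and 1.60 (1.57 to 1.64). CD34 went the same way, at 1.14, 1.78 and 1.39, and so did CD117, which is KIT, at 1.12, 1.54 and 1.17.

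CD201, CD150 and Sca1, tags of stem cells, went the other way, and so did CD127, at 0.968, 0.8135 and 0.936. CD201 counts were low, with medians of 5, 2 and 1 UMIs in its lowest part and 30, 12 and 9 in its highest. CD201, the protein C receptor, gave 0.782 (0.766 to 0.798) in Control, against 0.616 (0.601 to 0.632) in MLL::ENL and 0.672 (0.656 to 0.687) with Skida1 deleted. CD150 gave 0.860, 0.689 and 0.788, and Sca1 0.925, 0.650 and 0.823. CD41, on megakaryocytes, gave 0.986, 0.976 and 0.941. Depth moved with the parts: cells low and high in CD48 had medians of 10534 and 17491 UMIs in Control, against 6404 and 13227 in MLL::ENL and 5929 and 10779 with Skida1 deleted. The part of depth in these ratios was not tested.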

How the data were processed

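The deposited files hold raw UMI counts per gene and antibody tag for each cell barcode, made by the authors with Cell Ranger (version 6.1.2 per the file headers, 6.0.1 and mm10 per the submitters' processing notes) from 10x 3′ libraries per the labels' protocols. Annotation, introns and strand settings were not stated.

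Barcodes were kept if they had 1000 or more UMIs from 500 or more genes, of which mitochondrial genes made up less than 10%. Those with the highest Scrublet scores were then removed at 0.8% per 1000 cells (267, 994 and 794), because Scrublet's own threshold called 398, 0 and 568. Cells were clustered with scanpy 1.11.5 and leidenalg 0.10.2 (2000 variable genes scaled within each library, 30 components, 15 neighbours, resolution 1.0). Left out were the cell cycle genes of the lists used here and histone, mitochondrial, ribosomal and sex-linked genes. Clusters were named from at least 3 raised markers. Scaling within libraries, and the rule for a cluster with equal markers of several classes, were chosen after seeing the data. The basophil-mast-like class had too few cells (20, 83 and 6) and is not compared.

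Gene counts were summed by library and class and scaled to 1000000 gene UMIs (CPM). Level intervals are exact Poisson, ratio intervals exact conditional binomial and share intervals exact binomial, at 95%. A gene counted as measured at 5 CPM or more in either library. It counted as higher or lower past a 1.5-fold ratio of CPM. Log2 ratios of single genes use CPM + 1. Total gene UMIs per library were 180656900, 198773992 and 207395090. Tested on simulated data for MLL::ENL over Control (8862 genes), the ratio rule recovered 100% of 200 changed genes. The simulated counts held counting error only, and the changes were set well past 1.5-fold. Their depth was above that of the granulocyte progenitor-like and megakaryocyte-like sums. The test thus checks the calculation, and cannot show how the rule performs where libraries differ in other ways.

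Members and lists were chosen with earlier results of these data known. Named by rule were, for each contrast and class, the 5 members with the largest log2 ratios in size, Mcm2 to Mcm7, Pcna, Rrm2, Tyms and Rpa3, and the 2 highest and 2 lowest genes of the other lists in HSPC-like and erythroid-like cells. Other members were added with their values in view. Alternatives changed the clustering, cell filter, doublet removal, scaling, thinning, class naming and thresholds. The antibody tags were used only to divide HSPC-like cells.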

Additional observations from a re-analysis of the deposited data

How the results depend on the processing

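Values here are log2 ratios of the summed level of the 41 genes, or counts of members at least 1.5-fold lower. Beside a count is the share of all genes that were lower. For thinning this share was computed only in HSPC-like cells of MLL::ENL over Control, and at 2-fold it was not computed. In HSPC-like cells MLL::ENL stayed below Control in all 11 alternatives (-0.57 to -0.15), as did erythroid-like cells in 11 and granulocyte progenitor-like cells in 9. The median log2 ratio over all genes was also below 0 in these classes wherever it was computed, so a kept sign does not set the members apart. In HSPC-like cells this median was -0.101 with the main choices (sum -0.371) and -0.126 with the stricter filter (sum -0.152). In erythroid-like cells it was -0.135 with the main choices (sum -0.116). No paired analysis was possible because each genotype has 1 library.

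For MLL::ENL over Control, the stricter cell filter (at least 3000 UMIs) gave -0.115 over all cells and -0.152 in HSPC-like cells, with 4 members lower (16% of all genes). Resolution 0.5 gave -0.177 in HSPC-like cells, with 4 lower (15% of all genes). Thinning gave -0.141 over all cells, -0.570 in HSPC-like (24 lower, 18.1% of all genes), -0.295 in granulocyte progenitor-like and -0.134 in erythroid-like cells (7 lower). Fixing class shares at those of Control gave -0.142 over all cells. Scaling by the median of ratios gave -0.0172 over all cells, -0.320 in HSPC-like, -0.107 in granulocyte progenitor-like (6 lower), 0.113 in megakaryocyte-like (2 lower) and -0.0252 in erythroid-like cells (2 lower). Under this scaling the members lower in those last 3 classes made up 14.6%, 4.88% and 4.88%, against 12%, 11.2% and 8.27% of all genes. Scaling without globin, ribosomal, mitochondrial, cell cycle and histone genes gave -0.0361, -0.293, -0.125 (6 lower, 13.5% of all genes), 0.0331 (2 lower, 15.2%) and -0.0293 (2 lower, 8.82%) for all cells and the 4 classes in the same order. With cell cycle genes in the clustering the HSPC-like value was -0.333 and the megakaryocyte-like value 0.0107 (3 lower, 17.9% of all genes). Without scaling within libraries the values were -0.325 in HSPC-like and -0.1025 in erythroid-like cells, with 2 lower in megakaryocyte-like cells (22.2% of all genes). Marker scores per cell gave -0.346 in HSPC-like, -0.203 in granulocyte progenitor-like, 0.0710 in megakaryocyte-like (2 lower, 16.2% of all genes) and -0.0871 in erythroid-like cells. Adding granulocyte progenitor-like to HSPC-like cells gave -0.337 for both. Resolution 1.5 gave 0.0201 in megakaryocyte-like cells (3 lower, 16.4% of all genes). No doublet removal gave 0.0534 there (3 lower, 15.8% of all genes) and -0.121 in erythroid-like cells. At 2-fold 3 members were lower in HSPC-like cells and 1 in granulocyte progenitor-like cells, with 0 in the megakaryocyte-like class and 0 in the erythroid-like class. Where a value changed, the cause was not tested.

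For the Skida1-deleted library over MLL::ENL, the stricter filter gave -0.0538 over all cells, -0.0941 in HSPC-like (2 members lower, 1.44% of all genes), -0.0971 in megakaryocyte-like and -0.0180 in erythroid-like cells. Scaling by the median of ratios gave -0.00130 over all cells, 0.0435 in HSPC-like, 0.0251 in granulocyte progenitor-like and 0.0486 in erythroid-like cells. Scaling without the named gene sets gave -0.00158 over all cells and 0.0108 in erythroid-like cells. Thinning gave -0.0468 over all cells, 0.0754 in HSPC-like (2 lower) and -0.0867 in granulocyte progenitor-like cells, with 2 lower in megakaryocyte-like cells. Fixed shares gave -0.000344. Resolution 0.5 gave 0.0453 in HSPC-like, -0.0539 in granulocyte progenitor-like and -0.00486 in erythroid-like cells. Cell cycle genes in the clustering gave -0.117 in granulocyte progenitor-like cells, and leaving out scaling within libraries gave -0.208 there (3 lower, 13.3% of all genes) and 0.0428 in megakaryocyte-like cells. Marker scores gave 0.0627 in HSPC-like, -0.102 in granulocyte progenitor-like and 0.0145 in erythroid-like cells. The 2 classes summed gave 0.0238, and resolution 1.5 gave 0.0508 in megakaryocyte-like cells. No doublet removal gave 0.0682 in megakaryocyte-like and -0.00639 in erythroid-like cells.

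Granulocyte progenitor-like cells had no value without doublet removal or with the stricter filter, since no cluster took that name. The alternatives for basophil-mast-like cells were not run. The main limits are 1 library per genotype, a depth lower in MLL::ENL than in Control, classes rebuilt from markers, and sums that mix cells in and out of S phase.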
